A study of Homo sapiens with 6 samples.

Results

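Tetraspanins, CD47, TM4SF1 and genes named after integrins were followed through 6 expression arrays of 3 established cell lines of human ovarian cancer: SKOV-3, ES-2 and OVCAR-3. The members were every gene whose annotated symbol begins with ITGA or ITGB and a digit, with ITGAV, ITGAL, ITGAM, ITGAX or ITGAE, or with TSPAN and a digit, and CD9, CD37, CD53, CD63, CD81, CD82, CD151, CD47 and TM4SF1. The rule found 35 of 14884 named genes, on 36 of 16098 named array features. They were 29 tetraspanins (22 TSPAN symbols and 7 CD symbols), CD47, TM4SF1, 3 integrin-binding proteins (ITGB1BP1, ITGB1BP2 and ITGB3BP) and 1 antisense RNA, ITGB2-AS1. Integrin subunit genes were not analysed here, so the set is one of tetraspanins and integrin-associated proteins.

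Every line contributed a control array, from cells given miR-blank, and a treated array, from cells given miR-135a-3p, so that each transfection had 3 arrays, 1 from each line. The sources used here give no dose, no harvest time and no composition of miR-blank. They do not say whether the arrays of a line came from separate cultures. With 1 array per line and transfection, the p-values rest on how far the transfection difference varied among the 3 lines. P-values between lines rest on that spread too, and technical spread cannot be told apart within it. Values are normalised log2 signals, on which a step of 1 is a 2-fold change. A transfection difference is treated minus control, and values by line come in the order ES-2, OVCAR-3, SKOV-3, with the control array first. A signal under 5 is called dim, because the table holds no detection calls and such a signal was not shown to be above background. Signals of different genes come from different probes, so levels are compared between arrays and never between genes.

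Tetraspanins are small membrane proteins that cross the membrane several times and hold integrins, proteases and receptors together in patches of the cell surface. Integrins are the adhesion receptors for matrix, and CD151 and CD9 are among the tetraspanins best known as their neighbours. The TspanC8 tetraspanins carry the protease ADAM10 to the cell surface. CD47 binds integrins and thrombospondin and tells macrophages, through SIRPA, not to engulf the cell. TM4SF1, the tumour antigen L6, resembles tetraspanins in outline but belongs to a separate family.

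The transfected RNA is shown first, since all differences below refer to it. Both arms of the MIR135A1 hairpin are given 5′ to 3′ from RefSeq (build GRCh38.p14, minus strand of chromosome 3), with the seed, bases 2 to 8, in capitals; their seeds differ.
hsa-miR-135a-3p, chr3:52294232-52294253: uAUAGGGAuuggagccguggcg
hsa-miR-135a-5p, chr3:52294270-52294292: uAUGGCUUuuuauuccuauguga

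The promoters of 4 members are shown because these were the tested members with a difference of at least 2-fold in a line: CD47 and TM4SF1 in OVCAR-3, and TSPAN15 and TSPAN33 in SKOV-3. Each run is the 250 bases before the annotated start, 5′ to 3′ on the strand of the gene, from the RefSeq table (build GRCh38.p14). Capitals mark matches on either strand to GGGCGG (the GC box), TGANTCA (AP-1), GGAATG (TEAD) or TATAAA (the TATA box), overlaps included.
CD47, chr3:108091032-108091281, minus strand: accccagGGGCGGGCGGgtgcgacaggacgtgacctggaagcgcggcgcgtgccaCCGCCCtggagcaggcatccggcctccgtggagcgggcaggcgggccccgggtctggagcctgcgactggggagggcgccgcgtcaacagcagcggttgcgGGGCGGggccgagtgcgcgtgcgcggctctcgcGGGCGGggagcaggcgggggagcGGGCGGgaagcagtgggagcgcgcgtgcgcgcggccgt
TM4SF1, chr3:149377650-149377899, minus strand: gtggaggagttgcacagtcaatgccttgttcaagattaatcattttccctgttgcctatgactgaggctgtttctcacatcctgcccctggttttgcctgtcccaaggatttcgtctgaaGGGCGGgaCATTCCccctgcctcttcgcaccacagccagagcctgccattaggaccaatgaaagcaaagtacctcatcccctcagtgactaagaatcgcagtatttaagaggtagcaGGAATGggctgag
TSPAN15, chr10:69451215-69451464, plus strand: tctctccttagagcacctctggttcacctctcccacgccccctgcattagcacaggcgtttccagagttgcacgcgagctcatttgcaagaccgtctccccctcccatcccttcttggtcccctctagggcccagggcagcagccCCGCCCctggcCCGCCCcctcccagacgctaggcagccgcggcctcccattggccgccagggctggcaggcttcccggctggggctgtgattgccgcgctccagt
TSPAN33, chr7:129144457-129144706, plus strand: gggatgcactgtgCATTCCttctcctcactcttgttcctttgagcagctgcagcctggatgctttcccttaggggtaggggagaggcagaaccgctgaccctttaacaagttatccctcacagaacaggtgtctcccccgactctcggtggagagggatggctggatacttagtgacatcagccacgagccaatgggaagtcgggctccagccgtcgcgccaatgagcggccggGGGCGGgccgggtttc

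CD47 had 6 GC box matches, TSPAN15 had 2, and TM4SF1 and TSPAN33 had 1 each. Of 35116 promoter stretches of this length in the table, 42.6% held the GC box. TM4SF1 had 2 TEAD matches and TSPAN33 had 1, against 11.9% of all stretches with at least 1. None of the 4 held TGANTCA or TATAAA, which 6.57% and 10.7% of all stretches held. The stretch before CD47 was 79.6% G or C and that before TM4SF1 50.8%, where the median of all stretches was 58.0%. The arrays do not measure promoters, so these matches describe the sequences only.

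The hairpin gene MIR135A1 read 1.75, 2.26 and 2.07 on the control arrays and 12.57, 12.20 and 11.58 on the treated ones, as the labels have it. The arrays of SKOV-3 stood apart from the other pairs. The SD of the transfection difference over the 8620 genes tested was 0.48 in SKOV-3, against 0.30 in ES-2 and 0.30 in OVCAR-3. Lineage markers were mixed. KRT18, a simple epithelial keratin, lay between 9.36 and 10.47 on all arrays and KRT8 between 5.29 and 6.75. KRT19 was dim on 3 arrays and the epithelial adhesion gene EPCAM on all 6. PAX8, a Mullerian factor, read 8.80 and 8.12 in SKOV-3 but was dim on the other 4 arrays. MECOM, of the same list, was dim in SKOV-3 and OVCAR-3 and read 6.24 and 6.35 in ES-2. Of the rest of that list, WT1 (5.59 to 7.15) and MSLN (5.19 to 7.02) were dim on no array and SOX17 was dim on 2. Of other cell types, 2 fibroblast, 4 endothelial or platelet and 6 leukocyte markers were named. LUM, a fibroblast matrix gene, read 6.06 and 2.84 in SKOV-3 and was dim on the other 4 arrays, whereas DCN, the other fibroblast marker, was dim on all 6. CD68, which macrophages share with many tumour lines, read 10.4 and 10.15 in ES-2, 7.68 and 7.29 in OVCAR-3, and 7.96 and 10.20 in SKOV-3. The mean of the leukocyte list ran from 5.01 to 5.66 over the arrays, that of the endothelial and platelet list from 4.73 to 4.89 and that of the fibroblast list from 2.38 to 3.97; 3, 2 and 1 of their markers were dim on all 6. The part of these in the SKOV-3 results below was not tested.

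Of the 35 members, 20 had a mean signal of at least 5 and were tested, 15 of these at 5 or more on all 6 arrays. The other 15 had a lower mean, and 8 of those were dim on every array. Between transfections, limma with the cell line as a block called 0 of the 20 tested members, against 1 of 8620 genes (0.0116%), MIR135A1. Without adjustment, p was under 0.05 for 1 member, TSPAN6, and for 251 genes in all. The lowest adjusted p of a member was 0.999. The median of the mean differences was −0.0095 over the tested members and −0.0097 over all genes tested. In a single line there is no replicate, and differences are given as sizes. In ES-2, 0 of the 20 reached 2-fold in either direction (0.162% of all genes higher, 0.510% lower). OVCAR-3 had 1 higher (0.290% of all genes) and 1 lower (0.383%). SKOV-3 had 0 higher (2.34%) and 2 lower (1.66%). In all 3 lines, 5 members had the higher signal (9.54% of all genes) and 4 the lower (13.4%).

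**Figure D1:**
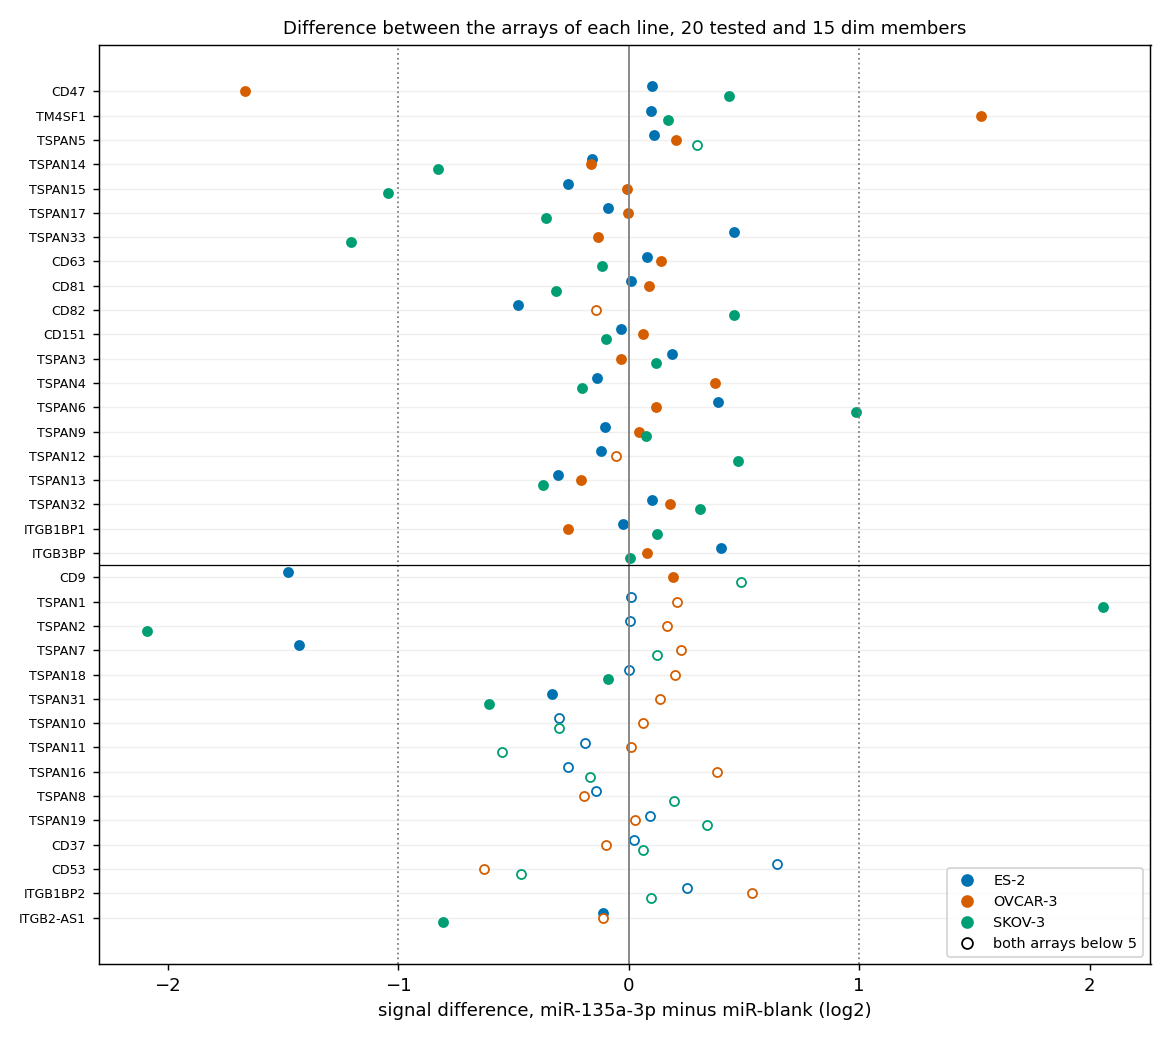
Log2 signal difference, treated minus control array, of each line for every member, the 20 tested above the black line and the 15 with a mean under 5 below it; filled circles have at least 1 array of the line at 5 or more, open circles have both below 5, and dotted lines mark 2-fold. CD47 and TM4SF1 stand at −1.67 and 1.53 in OVCAR-3, while the widest SKOV-3 points, at 2.06 and −2.09, belong to the dim members TSPAN1 and TSPAN2.

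CD47 had a lower signal on the treated array in OVCAR-3 alone. It read 9.05 and 9.15 in ES-2, 5.16 and 3.49 in OVCAR-3, and 8.71 and 9.15 in SKOV-3. The OVCAR-3 arrays thus lay well below the other 4, and the treated one was dim, so the size of the difference there is uncertain. The arrays read bulk RNA, in which fewer cells with a transcript and less of it per cell cannot be told apart. The differences were 0.10, −1.67 and 0.44, with a mean of −0.38 ± 1.13 (SD, n = 3), and the mean is 0.27 without OVCAR-3. The OVCAR-3 difference ranked 4 from the bottom of 8620 genes. Between lines, CD47 was 27.4-fold lower in OVCAR-3 than ES-2 (ES-2 minus OVCAR-3 4.78 on the log2 scale, limma adjusted p = 0.0007) and 24.4-fold lower than in SKOV-3 (adjusted p = 0.0011). Both comparisons use the same OVCAR-3 arrays, near background, so these folds are uncertain in size. Without the control or the treated OVCAR-3 array the difference was 5.74 or 3.81 from ES-2 and −5.57 or −3.64 from SKOV-3, called each time. ES-2 and SKOV-3 differed by 0.17 (adjusted p = 0.83).

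TM4SF1, an antigen of many carcinomas, had the opposite sign in OVCAR-3. It read 11.59 and 11.69 in ES-2, 9.11 and 10.63 in OVCAR-3, and 10.68 and 10.85 in SKOV-3. All 6 arrays were far above the dim range, and the OVCAR-3 control array was the lowest of them. The differences were 0.10, 1.53 and 0.17, a mean of 0.60 ± 0.80 (SD, n = 3) with an unadjusted limma p of 0.081. The OVCAR-3 difference ranked 9 from the top of 8620 genes. Between lines, TM4SF1 was higher in ES-2 than OVCAR-3 by 1.77 (limma adjusted p = 0.012). Without the OVCAR-3 control array that difference was 1.07 and was not called (adjusted p = 0.051), nor was it when all array features were tested.

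The other 18 tested members in OVCAR-3 lay between −0.26 (ITGB1BP1) and 0.37 (TSPAN4), so none of them came near CD47 or TM4SF1 there. The related L6 genes TM4SF18 and TM4SF19 differed by 0.10 and −0.04 in OVCAR-3. SIRPA, the receptor for CD47, differed by 0.04 in that line, and QPCTL, the enzyme that modifies CD47 for SIRPA binding, by −0.16.

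**Figure D2:**
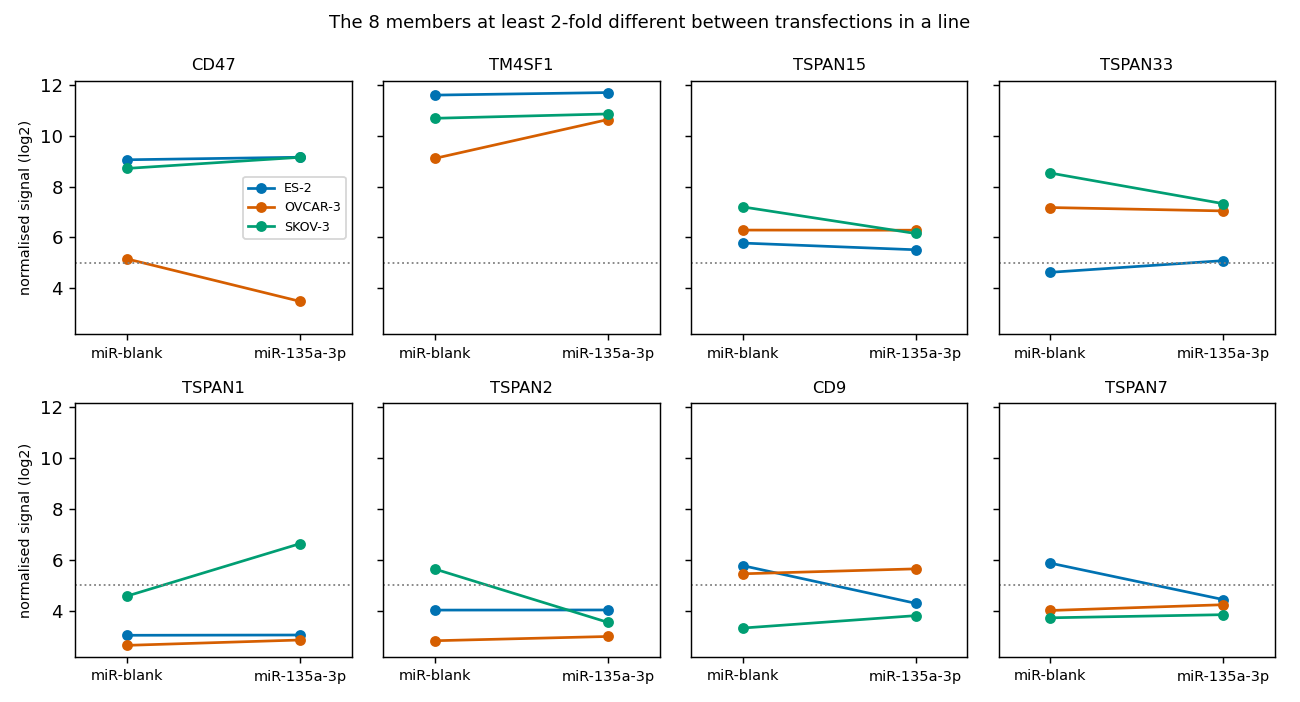
Normalised log2 signal on the control (miR-blank) and treated (miR-135a-3p) array of each line, 1 array per point, for the 8 members with a difference of at least 2-fold in a line; the dotted line marks a signal of 5. In the lower row and for CD47 in OVCAR-3, at least 1 end of the steep line lies below 5, while TM4SF1, TSPAN15 and TSPAN33 stay above it in the line where they differ.

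Among the TspanC8 tetraspanins, 4 of 5 tested members had the lower signal on the treated array of SKOV-3, and the median there was −0.83. Of all 20 tested members, 9 were lower in SKOV-3, and the median over all genes tested was 0.02 in that line, the pair with the widest spread. The group as such was not tested. In ES-2 and OVCAR-3 the medians were −0.09 and −0.0049, with 3 and 4 of the 5 lower, so the count alone did not set SKOV-3 apart. TSPAN33, also known from activated B cells, read 4.63 and 5.09 in ES-2, 7.18 and 7.04 in OVCAR-3, and 8.53 and 7.33 in SKOV-3. The differences were 0.46, −0.13 and −1.20, so the SKOV-3 pair alone passed 2-fold and the mean of −0.29 ± 0.84 (SD, n = 3) is 0.16 without SKOV-3.

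TSPAN15, a partner of ADAM10 in cadherin shedding, read 5.78 and 5.52 in ES-2, 6.29 and 6.29 in OVCAR-3, and 7.20 and 6.16 in SKOV-3. The differences were −0.26, −0.005 and −1.04. TSPAN14 read 9.19 and 9.03, 7.65 and 7.48, and 9.13 and 8.30 in the same order, with −0.16, −0.16 and −0.83. In both genes the signs were alike in all lines and SKOV-3 held the largest difference. Without SKOV-3 the means were −0.13 for TSPAN15 and −0.16 for TSPAN14, against −0.44 ± 0.54 and −0.38 ± 0.38 (SD, n = 3) with it.

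TSPAN17 differed by −0.09, −0.00086 and −0.36, and TSPAN5, the member of the group that was higher in all 3 lines, by 0.11, 0.21 and 0.30. TSPAN5 was dim on both SKOV-3 arrays. TSPAN10 was dim on all 6 arrays, between 4.14 and 4.48. ADAM10, the protease these proteins escort, differed by 0.24, 0.28 and −0.35. The signs of TSPAN15 and TSPAN17 in OVCAR-3 were too small to hold, and they turned after quantile or cyclic loess normalisation.

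Between lines, TSPAN5 read 6.68 and 6.79 in ES-2, 4.88 and 5.09 in OVCAR-3, and 4.15 and 4.45 in SKOV-3. It passed the filter on low signals through ES-2 alone, so its line differences (1.75 from OVCAR-3 and 2.43 from SKOV-3) are a description with no test, and their sizes rest on dim arrays. For TSPAN33, ES-2 lay below OVCAR-3 (−2.25, limma adjusted p = 0.0056) and below SKOV-3 (−3.07, adjusted p = 0.0026), with sizes that are uncertain because the ES-2 control array was dim. Without the OVCAR-3 treated array the first of these was −2.13 and not called (adjusted p = 0.065). TSPAN14 was higher in ES-2 than OVCAR-3 by 1.55 (limma adjusted p = 0.0031) and lower in OVCAR-3 than SKOV-3 (−1.15, adjusted p = 0.011). That second call was lost without either OVCAR-3 array (adjusted p of 0.123 and 0.0655) and, at −0.82, without the SKOV-3 control array. TSPAN15 was lower in ES-2 than SKOV-3 (−1.03, limma adjusted p = 0.036). The call was lost when any array other than the SKOV-3 treated one was left out, with −0.58 without the SKOV-3 control array, and when all array features were tested.

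**Figure D3:**
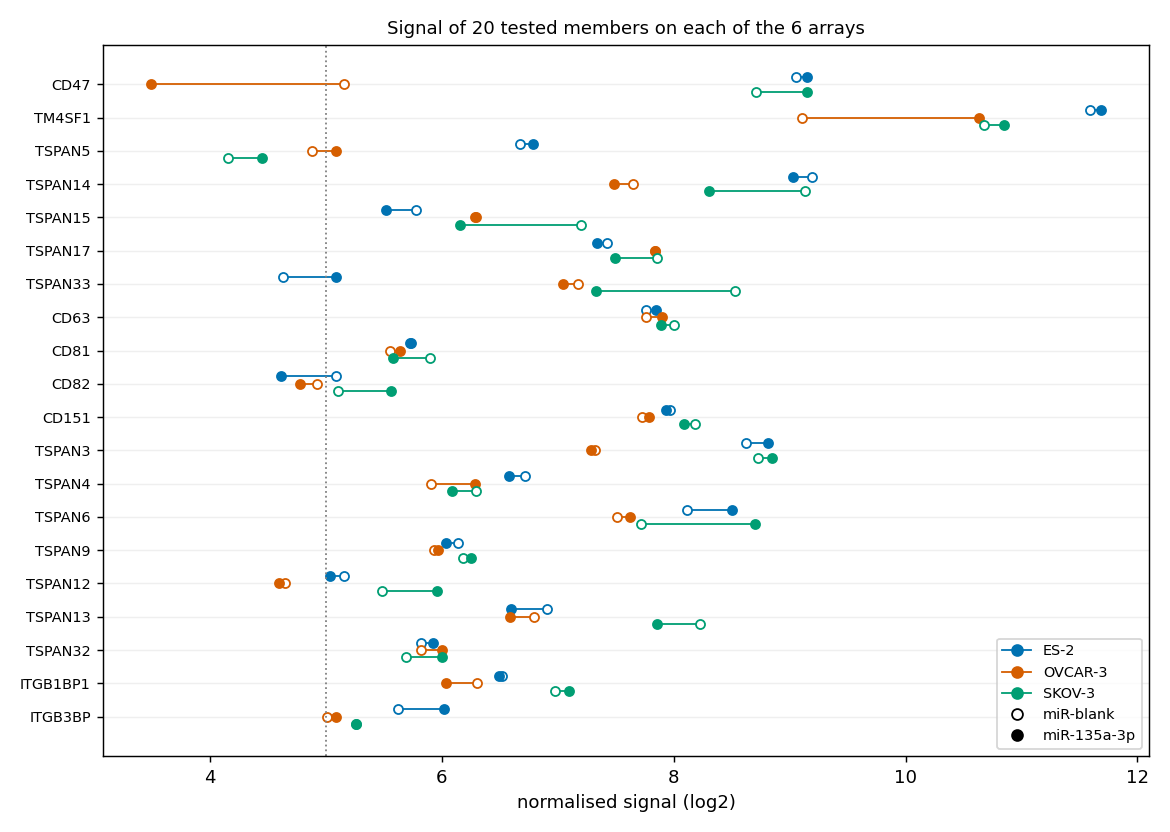
Normalised log2 signal of the 20 tested members on each array, coloured by cell line, with open circles for miR-blank and filled circles for miR-135a-3p and a dotted line at 5. For CD47 the OVCAR-3 points lie below all others, for TSPAN5 the ES-2 points lie above all others, and the CD81 points stay between 5.55 and 5.90; levels of different genes cannot be compared.

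CD9, CD63, CD81, CD82 and CD151 are the tetraspanins most widely found in tissues. CD63, a marker of late endosomes and exosomes, read 7.76 and 7.84 in ES-2, 7.76 and 7.90 in OVCAR-3, and 8.005 and 7.89 in SKOV-3. CD151, the partner of laminin-binding integrins, lay between 7.72 and 8.19 on all arrays, and CD81, a subunit of the B cell coreceptor, between 5.55 and 5.90. None of these 3 was called in any comparison, and their widest transfection difference was −0.32, for CD81 in SKOV-3. CD82, known as a metastasis suppressor, differed by −0.48, −0.14 and 0.46 and was dim on 3 arrays.

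CD9, which restrains cell motility and acts in membrane fusion, read 5.77 and 4.30 in ES-2, 5.45 and 5.65 in OVCAR-3, and 3.32 and 3.81 in SKOV-3. Its mean was under 5 and it was not tested. The treated array of ES-2 was lower and dim (−1.48), while the other differences were 0.19 and 0.49. Both SKOV-3 arrays were dim, and with no filter limma called CD9 higher in OVCAR-3 than SKOV-3 (adjusted p = 0.028).

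TSPAN6 and TSPAN13 had the same sign in all lines. TSPAN6, linked to exosomes and antiviral signalling, read 8.11 and 8.50 in ES-2, 7.51 and 7.63 in OVCAR-3, and 7.72 and 8.71 in SKOV-3. The treated array was higher in each pair, by 0.39, 0.12 and 0.99, but the 2 groups overlapped. The mean was 0.50 ± 0.44 (SD, n = 3), with an unadjusted limma p of 0.039 and an adjusted p of 0.999. Without SKOV-3 the mean was 0.25. TSPAN13 read 6.91 and 6.60, 6.79 and 6.59, and 8.23 and 7.86. Its differences of −0.31, −0.21 and −0.37 were the most alike of the members lower in all lines, with a mean of −0.29 ± 0.08 (SD, n = 3, unadjusted limma p of 0.062).

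TSPAN13 was higher in SKOV-3 than ES-2 (ES-2 minus SKOV-3 −1.29, limma adjusted p = 0.0030) and than in OVCAR-3 (−1.35, adjusted p = 0.0019). TSPAN3 was lower in OVCAR-3 than in both other lines, with 7.32 and 7.29 there against 8.62 to 8.85 on the other 4 arrays. ES-2 minus OVCAR-3 was 1.41 (limma adjusted p = 0.0014) and OVCAR-3 minus SKOV-3 −1.49 (adjusted p = 0.0014). The second feature of TSPAN3 was dim on all arrays, between 2.88 and 3.61, and with the mean of both features the differences were 0.95 and −0.91, under 2-fold. TSPAN12, a coreceptor in Norrin signalling through Frizzled-4, was dim in OVCAR-3 (4.65 and 4.59) and read 5.48 and 5.96 in SKOV-3. Its ES-2 and OVCAR-3 means were 5.095 and 4.62, so it passed the filter on low signals only with SKOV-3. Its OVCAR-3 minus SKOV-3 difference of −1.10 is therefore a description with no test, its size uncertain with both OVCAR-3 arrays dim. The call by limma was lost without either OVCAR-3 array (−1.22 and −0.99) and without the SKOV-3 treated array (−0.82).

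TSPAN4, TSPAN9 and TSPAN12 had transfection differences between −0.20 and 0.47, with no common sign. TSPAN3 differed by 0.19, −0.03 and 0.12.

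The largest differences in SKOV-3 were held by dim members. TSPAN1, a tetraspanin of secretory epithelia, read 4.58 and 6.64 in SKOV-3 and between 2.65 and 3.05 on the other 4 arrays. TSPAN2, best known from myelin-forming cells, had the opposite sign in SKOV-3, with 5.64 and 3.55, and lay between 2.83 and 4.03 elsewhere. TSPAN7, known from neurons, read 5.87 and 4.44 in ES-2 and was dim on the other 4 arrays. Each of these 3 was above 5 on 1 array of the 6, so the sizes of the differences (2.06, −2.09 and −1.43) depend on signals near background. TSPAN31, a neighbour of CDK4, differed by −0.33, 0.14 and −0.60, and TSPAN18 by 0.003, 0.20 and −0.09. TSPAN8, TSPAN10, TSPAN11, TSPAN16 and TSPAN19 were dim on all arrays. With no filter limma called TSPAN1 lower in ES-2 and in OVCAR-3 than in SKOV-3 (adjusted p = 0.015 and 0.0089) and TSPAN31 lower in OVCAR-3 than SKOV-3 (adjusted p = 0.010).

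Of the tetraspanins of blood cells, CD37 (4.23 to 4.49) and CD53 (2.70 to 3.63) were dim on all 6 arrays. TSPAN32 read between 5.69 and 6.0 on all arrays, with differences of 0.10, 0.18 and 0.31. The lines did not separate at TSPAN32, where their means lay within 0.065 of each other. Of the 6 named leukocyte markers, 3 were dim on every array.

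The integrin-binding proteins showed small differences. ITGB1BP1, also known as ICAP-1, binds the tail of the beta1 integrin and holds it inactive. It read 6.52 and 6.49 in ES-2, 6.30 and 6.04 in OVCAR-3, and 6.98 and 7.10 in SKOV-3. ITGB3BP, a kinetochore protein first found through the beta3 integrin, was higher in all lines, by 0.40, 0.08 and 0.004. The last of these is too small to carry a sign. ITGB1BP2, a chaperone of muscle, was dim on all arrays, and ITGB2-AS1, an antisense RNA gene, was dim on 4, with −0.11, −0.11 and −0.81.

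Across all comparisons of lines, limma called 9 of the 20 tested members at least once, which took a 2-fold difference and an adjusted p under 0.05, against 25.2% of all genes. Without TSPAN5, which passed the filter through ES-2 alone, these were 8 of 19. The 8 still include TSPAN12, which passed the filter only with SKOV-3. In ES-2 against OVCAR-3, 5 were higher in ES-2 (8.65% of all genes) and 1 was lower (7.82%). In ES-2 against SKOV-3, 1 was higher (4.85%) and 3 were lower (7.29%). Between OVCAR-3 and SKOV-3, OVCAR-3 had 0 higher (5.60%) and 5 lower (8.96%). TSPAN5 is 1 of the 5 higher in ES-2 than OVCAR-3 and the 1 higher in ES-2 than SKOV-3. TSPAN12 is 1 of the 5 lower in OVCAR-3 than SKOV-3. These comparisons share arrays, and each line has 2 arrays that also differ in transfection. The median absolute difference of the tested members was 0.51, 0.42 and 0.56 in the 3 comparisons, against 0.36, 0.33 and 0.35 over all genes tested. The 11 members called in no comparison had line means within 0.87 of each other, the widest being ITGB1BP1.

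**Figure D4:**
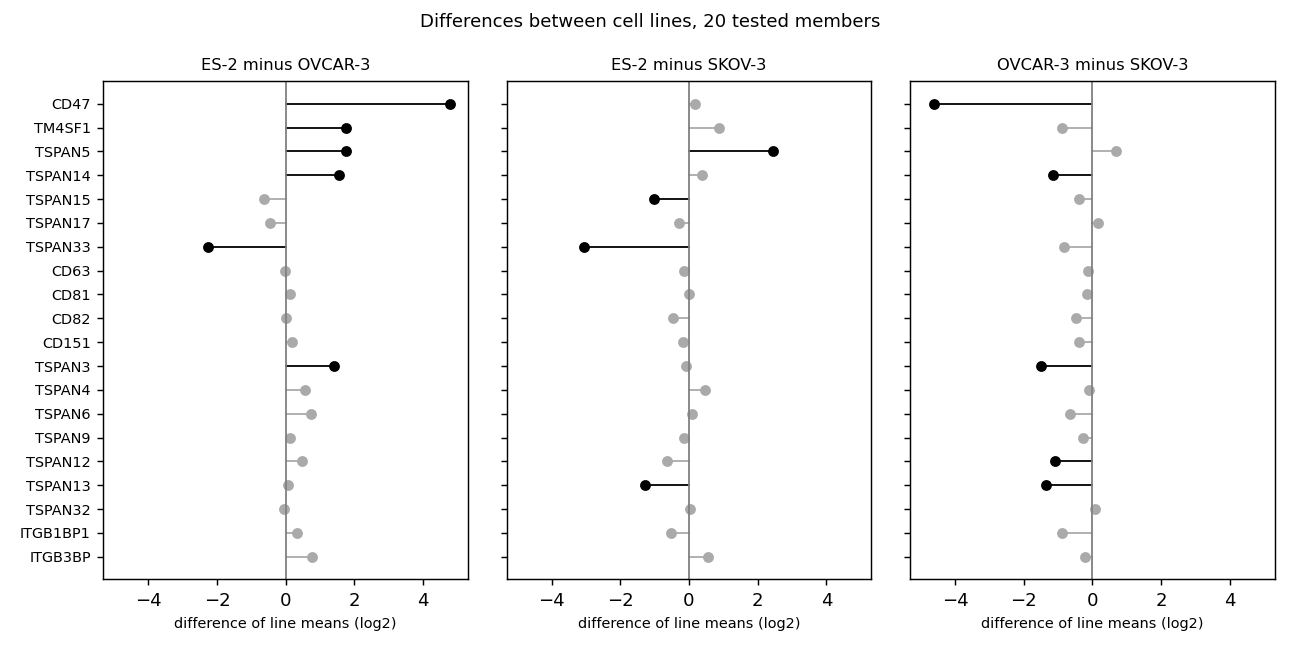
Log2 differences between the means of 2 arrays of each cell line for the 20 tested members, in black where limma called them (adjusted p under 0.05 and at least 2-fold) and in grey otherwise. CD47 stands out at 4.78 in ES-2 minus OVCAR-3 and at −4.61 in OVCAR-3 minus SKOV-3.

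Some members lie near each other in the genome. On chromosome 11, CD151 differed by −0.03, 0.06 and −0.10 and its neighbour TSPAN4 by −0.14, 0.37 and −0.20, with the same sign in each line. TSPAN32 (0.10, 0.18 and 0.31) and CD81 (0.01, 0.09 and −0.32) had opposite signs in SKOV-3 alone. CD82 (−0.48, −0.14 and 0.46) and TSPAN18 (0.003, 0.20 and −0.09) had opposite signs in OVCAR-3 and SKOV-3. The ES-2 difference of TSPAN18 is too small to carry a sign, and that gene was dim in ES-2 and OVCAR-3. These pairs were not tested.

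Genes that work with the members were counted from lists. Not every listed gene had a named feature: 23 of 36 integrin tail adaptors, 12 of 15 tetraspanin partners and 14 of 28 integrin ligands did. So did 8 of 9 other tetraspanin and L6 genes and 7 of 7 genes around CD47. Listed genes with no named feature could not be tested, whatever their level. Of 36 integrin tail adaptors, 21 were tested and 0 were called between transfections by limma, with 1 at an unadjusted p under 0.05, TGFB1I1, the focal adhesion protein Hic-5 (0.24, 0.69 and 1.20). Of the 21, 4 were higher and 0 lower in all 3 lines, against 9.54% and 13.4% of all genes. In SKOV-3, the paxillin relative LPXN (1.88) and the kindlin FERMT1 (1.66) were higher and the tensin TNS3 (−1.57) lower. Between lines, limma called 8 of the 21 higher and 2 lower in ES-2 than OVCAR-3 (8.65% and 7.82% of all genes), and 2 higher and 8 lower in OVCAR-3 than SKOV-3 (5.60% and 8.96%).

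Of 15 tetraspanin partners, 11 were tested and 0 were called between transfections, with 0 at an unadjusted limma p under 0.05. In all lines, 1 was higher and 1 lower (9.54% and 13.4% of all genes). PTGFRN, the main partner of CD9 and CD81, read 6.07 and 7.80 in SKOV-3, a difference of 1.73. Between lines, limma called 7 of the 11 partners higher and 0 lower in ES-2 than OVCAR-3 (8.65% and 7.82% of all genes), and 1 higher and 6 lower in OVCAR-3 than SKOV-3 (5.60% and 8.96%). Those called in both and lowest in OVCAR-3, as CD47 was, included CD44, a hyaluronan receptor, and the receptors EGFR and MET. Their line means were 8.06, 2.92 and 7.16 for CD44, 9.73, 4.55 and 8.995 for EGFR, and 10.02, 3.66 and 9.77 for MET. Each was dim on both OVCAR-3 arrays, so the sizes are uncertain. Of 28 integrin ligands 9 were tested and of 7 genes around CD47 3 were tested, and 0 of either were called between transfections, with 1 (ICAM1) and 0 at an unadjusted limma p under 0.05. Thrombospondin, THBS1, the ligand of CD47, read 7.68 and 4.29 in SKOV-3, while CD47 itself was higher there by 0.44. Of 9 other tetraspanin and L6 genes 3 were tested and 0 were called, with 0 at an unadjusted p under 0.05. TM4SF18 and TM4SF19 were higher in ES-2 than OVCAR-3 by 1.39 each (limma adjusted p = 0.0035 and 0.0072).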

How the data were processed

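The authors' deposited values are log2 signals of 53617 array features on 6 arrays, made, per the labels' protocols, from RNA labelled with biotin through a whole-transcript kit. Per the submitters' processing notes, the software was Transcriptome Analysis Console 3.0 and Affymetrix Expression Console 1.4, with RMA, and no roles are stated. RMA equalises the distributions of the arrays, so a shift of most genes would be lost. The log2 scale was read from the values; array medians were 4.16 to 4.23. The number of arrays limits the precision.

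Gene names came from GEO's annotation of the array, matched to a RefSeq table (GRCh38.p14), all 16098 by Entrez identifier; 37519 were unnamed here. The brightest feature of a gene was kept, and 8620 genes with a mean of at least 5 were fitted with limma 3.58.1 in R 4.3.3 (two-sided, Benjamini-Hochberg over all of them, adjusted p under 0.05; lines also at least 2-fold). Transfections were fitted with the cell line as a block and lines with the transfection as a block. Arrays of a line are pairs because they are the same cell line, and their deviations correlated at 0.904, 0.910 and 0.759. The procedure was tested on simulated data.

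Members and lists were chosen with earlier results of these data known. Genes named in detail were CD47, TM4SF1, tested members past 2-fold in a line, up to 5 higher and 5 lower in all lines, and the 6 largest called differences between lines; the dim members and the companions of each group were chosen after their values were seen. Lists name up to 4 genes by mean difference and 3 by range, plus ADAM10, SIRPA and QPCTL, named as partners. Alternatives were other scalings, filters, feature choices, moderation, no block, and each line or array left out.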

Additional observations from a re-analysis of the deposited data

Results flagged for a closer look

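No member passed 2-fold with opposite signs in different lines. Of the genes named from the lists, SPP1, a secreted ligand of integrins, did so, with −1.73 in ES-2 and 2.48 in SKOV-3, and this contrast of the lines was not tested.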

How the results depend on the processing

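The count of members called between transfections was 0 under all 13 alternatives, among them no replicate block (0) and each line left out. Without moderation, where each gene keeps its own variance on few degrees of freedom, limma called 0 members in each comparison of lines, with 5, 3 and 7 at an unadjusted p under 0.05. Of all genes tested, 0, 8 and 0 had an adjusted limma p under 0.05 in that setting, so the 0 is not particular to the members. With no filter, 8 members were called between OVCAR-3 and SKOV-3, and 2 and 4 members passed 2-fold in ES-2 and SKOV-3, since the dim members enter. Leaving out each array gave 3 to 6 calls between OVCAR-3 and SKOV-3, the 3 without the OVCAR-3 control array. With each line left out, the mean difference ran from −0.78 to 0.27 for CD47, from −0.67 to 0.16 for TSPAN33 and from −0.087 to 0.21 for TSPAN12. For the named members' line differences, the call was kept in 205 tested alternatives and lost in 32. That tally holds 15 alternatives for each called comparison of TSPAN5, which passed the filter through ES-2 alone. It also holds 15 for that of TSPAN12, which passed it only with SKOV-3. Signals under 5 limit what can be said of the dim members.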
